A study of Mus musculus with 29 samples.

Results

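The cytosolic HSP90 and HSP70 chaperone machinery was followed in mouse atria through 10 genes out of the 55292 gene names counted in every library. The genes were Hsp90aa1, Hsp90ab1, Hsph1, Chordc1, Ahsa1, Ahsa2, Hspa4l, Hspa8, Dnaja1 and Hspa1b. They were taken as a list of names, and several of them stand on it because they rose with a high-fat diet in these same libraries. Values for the diet are therefore a description, in either genotype and for the difference between the genotypes. Counts of these genes past a threshold in those contrasts are printed beside the share of all genes, and nothing is read from them. The list sets no threshold on a value. All 10 genes passed the filter on low counts in both experiments of the study.

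Polyadenylated RNA from the atria of male mice was sequenced in 29 libraries that form 6 groups. The first experiment held control mice (Ctrl) and mice labelled as NaV1.5 transgenic, fed either regular chow (RD, the regular diet) or high-fat food (HFD). Controls gave 4 libraries on each diet (Ctrl_RD and Ctrl_HFD), and NaV1.5 mice gave 4 on regular diet (NaV1.5_RD) and 5 on the high-fat diet (NaV1.5_HFD). For the other experiment every mouse carried the NaV1.5 label and ate the high-fat diet, with vehicle (5 libraries) or with nicotinamide riboside (NR, a vitamin B3 form that cells turn into NAD, 7 libraries). Treatment began at 5 weeks of age, and the high-fat diet lasted 4 weeks. NaV1.5 is the main sodium channel protein of heart muscle. The promoter and cell type that drive the transgene, the strain, the nature of the controls and the dose of NR are not given in the sources used here. Nor do they say that every library stands for its own animal. All p-values thus reflect spread among libraries, which may be technical.

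HSP90 proteins are ATP-driven chaperones that take up nearly folded clients, among them kinases and steroid receptors, from the HSP70 system. HSP70 proteins bind unfolded stretches, J-domain proteins hand clients to them and speed their ATP hydrolysis, and HSP110 proteins release the nucleotide so that the cycle can restart. Cells hold constitutive and stress-inducible forms of HSP90 and HSP70, and the inducible genes are classical targets of heat shock factor 1, which binds repeats of the unit GAA and its reverse complement TTC. In heart muscle, which works under steady mechanical load, these chaperones also take part in folding and renewing contractile proteins.

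The stretches that carry a dense run of that repeat are shown first, since the genes described here belong to a family known for it. RefSeq windows of 300 bases around gene starts (GRCm38.p6, with 250 bases before the start) were available for 7 of the 10 genes. Hsp90aa1, Hsp90ab1 and Hspa8 had no window and were not searched. Windows were searched on both strands for 3 alternating units, each parted from the next by any 2 bases (GAA, NN, TTC, NN, GAA, or the same beginning with TTC). This pattern lay in 198 of all 32851 windows (0.603%) and, by gene, in 179 of 27025 genes (0.662%). Among the 7 genes with a window it lay in 2, Chordc1 and Hsph1, and among 82 other chaperone genes with a window in 3 (3.66%), namely Hspd1, Hspe1 and Dnajb6. The Chordc1 stretch, chr9:18292260-18292289 on the plus strand, held 3 overlapping matches around the gene start, and the Hsph1 stretch, chr5:149636287-149636316 on the minus strand, held 1 match just after the start. Capitals mark the repeat in each.
Chordc1: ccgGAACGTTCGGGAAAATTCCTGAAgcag
Hsph1: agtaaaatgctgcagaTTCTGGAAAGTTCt

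A shorter pattern of 2 units (GAA, NN, TTC, or TTC, NN, GAA) is contained in the longer one and is far less selective, with 15.1% of windows holding it. It lay in 4 of the 7 genes, the other two being Dnaja1 (chr4:40722333-40722362, plus strand) and Hspa1b, and in 22 of the 82 other chaperone genes (26.8%). The 150 bases before the start of Hspa1b (chr17:34959239-34959388, minus strand) are shown beside those of its neighbouring copy Hspa1a (chr17:34972157-34972306, minus strand), because the copies bear on how far their counts can be separated. Over the 250 bases before their starts, 247 (98.8%) were equal. A match is a description of the letters only.
Dnaja1: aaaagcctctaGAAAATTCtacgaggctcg
Hspa1b: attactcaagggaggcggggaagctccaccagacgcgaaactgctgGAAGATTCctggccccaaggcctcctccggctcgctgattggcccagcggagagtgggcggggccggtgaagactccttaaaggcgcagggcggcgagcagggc
Hspa1a: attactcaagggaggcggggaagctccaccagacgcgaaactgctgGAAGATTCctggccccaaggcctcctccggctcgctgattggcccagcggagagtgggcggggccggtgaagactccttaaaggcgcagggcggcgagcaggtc

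Libraries held 13189995 to 33061018 assigned counts, with a median of 20861132. The labels name 3 batches without saying what a batch is. All libraries of the first experiment are in batch 1 except Ctrl_HFD replicate 4, which is in batch 2. Vehicle libraries are all in batch 3, while NR replicates 1 to 5 are in batch 2 and NR replicates 6 and 7 in batch 3. With batch in the model, Ctrl_HFD replicate 4 carries no weight in a contrast. NR is then set against vehicle within batch 3, through 2 NR libraries and 5 vehicle libraries. Markers of the labelled tissue were present, as all 6 atrial genes of a marker list (Myl7, Myl4, Sln, Nppa, Bmp10, Tbx5) were found in each group with a summed level of 22038 to 53733 CPM. Levels are in CPM (counts relative to the library total), scaled by TMM for single genes and unscaled for Myl2 and marker sums. The ventricular gene Myl2 was above 30 CPM in Ctrl_RD replicate 1, NaV1.5_RD replicates 2 and 3, NaV1.5_HFD replicate 5 and NR replicates 2 and 7. In such tissue RNA, fewer cells of a type and less RNA per cell cannot be told apart.

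How surely a count belongs to its gene differed among the 10. Counting ignored strand and left out pairs over more than 1 gene or mapped to several places. Of all 50-base stretches of a gene's transcripts, the share also found in another gene's transcripts was 62.3% for Hspa1b (with Hspa1a), 47.5% for Hsp90aa1 (41.8% with the pseudogene Gm12346), 45.3% for Ahsa2 (43.4% with Usp34), 39.4% for Hspa8 and 20.6% for Dnaja1. It was 4.67% for Ahsa1, 3.44% for Hsp90ab1, 0.818% for Chordc1, 0.356% for Hspa4l and 0.0% for Hsph1. Levels of the first 5 are therefore uncertain, while those of the last 5 are little touched by copies. Ahsa2 (GRCm38 chromosome 11, 23487882 to 23498030, minus strand) shared 50.2% of its exon bases with other genes, mainly Usp34 on the opposite strand, so its counts come from the rest of its exons.

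Per base of exon, the constitutive chaperones stood far above their partners. The length used was that of all exons of a gene together, not of 1 transcript. In Ctrl_RD, levels in TPM (counts per base of exon, scaled to the same total in every library) were 773 ± 75.6 (SD, n = 4) for Hsp90ab1, the constitutive HSP90, and 283 ± 11.6 for Hspa8, the constitutive HSP70 known as HSC70. Ahsa1, the activator of the HSP90 ATPase, stood at 52.2 ± 2.86 TPM, and Hsp90aa1, the inducible HSP90, at 25.4 ± 3.72 TPM. Neighbours in this order did not overlap down to Hsp90aa1. Stretches shared with other genes stay in the length although their pairs could be left out. Levels of Hsp90aa1, Hspa8, Ahsa2, Dnaja1 and Hspa1b may thus read low, and the place of Hsp90aa1 below Ahsa1 is uncertain. Next came Hsph1, Hspa4l, Dnaja1, Chordc1 and Ahsa2, between 9.26 and 6.67 TPM, each overlapping the next. Hspa1b, an inducible HSP70, was lowest at 1.48 ± 0.253 TPM. The same first 4 genes held in Ctrl_HFD and NaV1.5_RD, whereas in NaV1.5_HFD the range of Hsp90aa1 (40.3 to 78.2 TPM) reached over that of Ahsa1 (60.1 ± 3.15 TPM, n = 5).

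**Figure D1:**
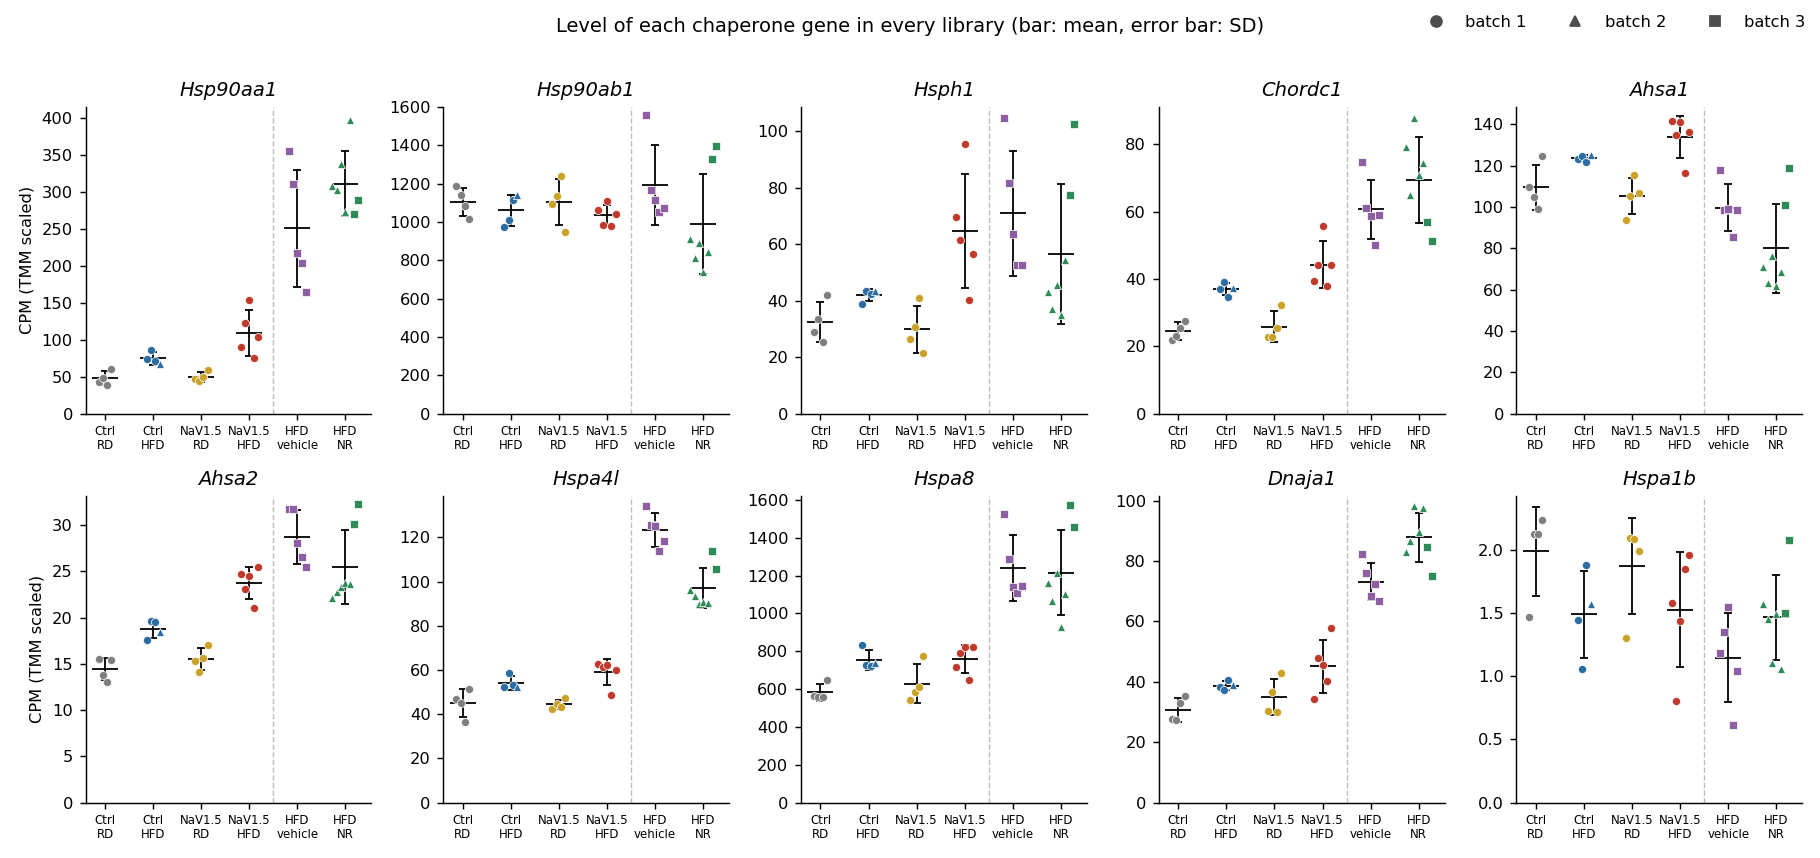
Level of each of the 10 chaperone genes in every library, in CPM with TMM scaling on a linear axis from 0; each point is 1 library, point shape gives the labelled batch, the horizontal bar is the group mean and the error bar the SD. The dashed line parts the first experiment from the second, which were scaled separately; Hsp90aa1 runs from 39.5 CPM in Ctrl_RD to 398 CPM in NR, while Hsp90ab1 lies between 949 and 1239 CPM in the first 4 groups.

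With the high-fat diet, the inducible HSP90 gene, an HSP110 gene and the cochaperone gene Chordc1 stood highest in NaV1.5 atria, while the constitutive HSP90 gene did not move with them. Of the 10 genes, 8 lay above 0 in the log2 difference between diets in NaV1.5 atria, with a median of 0.39, where the median over all 16168 genes tested was -0.01. The same 8 lay above 0 in control atria, with a median of 0.34 against -0.01 over all genes. Both contrasts share no library with each other, but both belong to the diet the list was chosen on. In NaV1.5 atria 5 of the 10 passed an adjusted p of 0.05 as higher (edgeR), as did 0.47% of all genes tested (1.13% in either direction), and nothing is read from that count. In controls 0 of 10 passed by edgeR and by DESeq2, and 3 by limma-voom, while 6 had an unadjusted p under 0.05. Over all genes 0.0% passed by edgeR, 19 genes by DESeq2 and 75 by limma-voom, and 8.49% had such an unadjusted p. Nothing is read from these counts either.

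Hsp90aa1 lies on GRCm38 chromosome 12, from 110690605 to 110702728 on the minus strand. Its levels were 42.5, 48.7, 39.5 and 61.3 CPM in Ctrl_RD and 74.8, 86.5, 70.8 and 67.6 CPM in Ctrl_HFD. In NaV1.5_RD they were 46.6, 44.5, 49.5 and 59.7 CPM, and in NaV1.5_HFD 90.1, 123, 154, 74.9 and 104 CPM. Every HFD library lay above every RD library of its genotype, and the 5 NaV1.5_HFD libraries spread most widely, with replicate 4 lowest and replicate 3 highest. The log2 difference was 1.13 (SE 0.18), or 2.18-fold, in NaV1.5 atria and 0.69 (SE 0.20), or 1.61-fold, in controls. Counts of its pseudogene Gm12346, which shares much of the transcript, were low throughout the first experiment (5 to 32 counts per library), and its own difference in NaV1.5 atria was 0.95 (SE 0.42, edgeR adjusted p = 0.23).

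Hsp90ab1, the second cytosolic HSP90 gene (chromosome 17, 45567775 to 45573271, minus strand), gave a different picture. It had 1106 ± 72.7 CPM in Ctrl_RD, 1060 ± 80.6 in Ctrl_HFD, 1105 ± 120 in NaV1.5_RD (each n = 4) and 1035 ± 55.1 in NaV1.5_HFD (SD, n = 5). The groups overlapped in both genotypes, and the log2 differences between diets were -0.09 (SE 0.090) in NaV1.5 atria and -0.10 (SE 0.10) in controls. The first turned to 0.03 (SE 0.12) without the libraries high in Myl2. Counted per base of exon, Hsp90aa1 made up 3.23% ± 0.804 of the 2 HSP90 genes' TPM in Ctrl_RD and 5.15% ± 0.83 in Ctrl_HFD. It made up 3.4% ± 0.794 in NaV1.5_RD and 7.4% ± 1.71 in NaV1.5_HFD. These shares may read low, since 47.5% of the stretches of Hsp90aa1 but 3.44% of those of Hsp90ab1 also occur in other genes. By this measure the constitutive gene remained the bulk of HSP90 transcript in every group of the first experiment.

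The HSP90 cochaperones came next. Chordc1 encodes CHP-1, a zinc-binding cochaperone of HSP90 (chromosome 9, 18292125 to 18317442, plus strand). It had 22.0, 23.0, 25.6 and 27.7 CPM in Ctrl_RD and 37.1, 39.2, 34.8 and 37.4 CPM in Ctrl_HFD. In NaV1.5 atria the values were 22.7, 22.9, 25.4 and 32.4 CPM on regular diet and 39.4, 44.3, 55.6, 37.9 and 44.2 CPM on the high-fat diet. No library of one diet reached the other in either genotype. The differences were 0.78 (SE 0.12) in NaV1.5 atria and 0.59 (SE 0.13) in controls, on the log2 scale.

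Ahsa2, a relative of the ATPase activator Ahsa1, was narrow within groups, although strand-blind counting leaves only part of its exons. It had 15.6, 13.8, 13.1 and 15.4 CPM in Ctrl_RD, 17.6, 19.7, 19.6 and 18.4 in Ctrl_HFD, 15.3, 14.1, 15.6 and 16.98 in NaV1.5_RD, and 24.7, 23.1, 24.5, 21.04 and 25.5 in NaV1.5_HFD. The 4 groups overlapped only between the genotypes on regular diet. Log2 differences between diets were 0.62 (SE 0.088) in NaV1.5 atria and 0.38 (SE 0.099) in controls. Its overlapping neighbour Usp34, a ubiquitin protease gene, differed by 0.39 (SE 0.12, edgeR adjusted p = 0.0953) and 0.05 (SE 0.14, adjusted p = 0.937) in the same contrasts. Whether Usp34 transcripts contributed to Ahsa2 counts was not tested. Ahsa1 (chromosome 12, 87266479 to 87273998, plus strand) had 105 ± 8.91 CPM in NaV1.5_RD and 134 ± 10.3 CPM in NaV1.5_HFD, a difference of 0.35 (SE 0.084), with no overlap. In controls it had 110 ± 10.8 and 124 ± 1.51 CPM, a difference of 0.17 (SE 0.095), with overlap.

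The HSP110 genes, which serve HSP70 as nucleotide exchange factors, differed in size of response. Hsph1 (HSP105; chromosome 5, 149614287 to 149636376, minus strand) had 28.8, 33.7, 25.3 and 41.9 CPM in Ctrl_RD and 38.7, 43.5, 42.3 and 43.5 CPM in Ctrl_HFD. Its values were 26.5, 30.7, 41.1 and 21.5 CPM in NaV1.5_RD and 69.7, 61.4, 95.2, 40.1 and 56.5 CPM in NaV1.5_HFD. The diets overlapped in both genotypes, through NaV1.5_RD replicate 3 and NaV1.5_HFD replicate 4 in the transgenic atria and through Ctrl_RD replicate 4 in controls. The difference was 1.11 (SE 0.23), or 2.15-fold, in NaV1.5 atria and 0.35 (SE 0.25) in controls. Hspa4l (chromosome 3, 40745382 to 40796103, plus strand) had 44.4 ± 2.13 CPM in NaV1.5_RD against 59.0 ± 5.94 in NaV1.5_HFD, a difference of 0.41 (SE 0.095). In controls it had 45.1 ± 6.31 against 54.1 ± 3.01 CPM, a difference of 0.28 (SE 0.11). Its diets did not overlap in either genotype.

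Among the HSP70 chaperones, Hspa8 (chromosome 9, 40800984 to 40810087, plus strand) had 583 ± 43.4 CPM in Ctrl_RD and 756 ± 53.2 in Ctrl_HFD, without overlap. It had 629 ± 102 in NaV1.5_RD and 760 ± 75.3 in NaV1.5_HFD, where NaV1.5_RD replicate 4 (775 CPM) reached into the HFD range. The differences were 0.39 (SE 0.12) in controls and 0.27 (SE 0.11) in NaV1.5 atria. Dnaja1, a J-domain partner of HSC70 (chromosome 4, 40722150 to 40737149, plus strand), differed by 0.33 (SE 0.15) in controls, without overlap, and by 0.37 (SE 0.13) in NaV1.5 atria, with overlap. Hspa1b (chromosome 17, 34956436 to 34959238, minus strand) went the other way at very low counts. It had 1.99 ± 0.353 CPM in Ctrl_RD, 1.49 ± 0.34 in Ctrl_HFD, 1.87 ± 0.38 in NaV1.5_RD and 1.53 ± 0.453 in NaV1.5_HFD, with overlap in both genotypes. Its differences were -0.46 (SE 0.30) in controls and -0.29 (SE 0.26) in NaV1.5 atria. Its copy Hspa1a differed by -0.36 (SE 0.38, edgeR adjusted p = 0.805) and -0.06 (SE 0.33, adjusted p = 0.95).

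Counted over the list, every HFD library lay above every RD library for 5 of the 10 genes in NaV1.5 atria, as for 2.65% of all genes tested, and 0 of 10 lay wholly lower (3.26% of all genes). In controls the first held for 6 of 10, against 3.07% of all genes, and 0 lay wholly lower (2.9% of all genes). Hsp90aa1, Chordc1, Ahsa2 and Hspa4l belonged to both counts, Ahsa1 to the first, and Hspa8 and Dnaja1 to the second. Single libraries weighed on the calls in NaV1.5 atria. Leaving out NaV1.5_RD replicates 1, 2, 3 or 4 left 3, 2, 1 or 8 of the 10 past the threshold, and leaving out NaV1.5_HFD replicates 2 or 3 left 3 each. Calls over all genes shifted too, from 182 to 66, 19, 4 or 1138 and to 13 or 11, in the same order. The differences themselves moved less, with Hsp90aa1 between 0.97 and 1.25 and Hsph1 between 0.93 and 1.31 over the libraries left out. Without the 4 libraries of the first experiment above 30 CPM of Myl2, which included 2 of the 4 NaV1.5_RD libraries, 0 of the 10 and 0 of all genes passed, with Hsp90aa1 at 1.07 (SE 0.26) and Hsph1 at 1.48 (SE 0.30).

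Other measures differed along with the diet, and their part in these differences was not tested. White adipocyte genes summed to 0.515 to 39.95 CPM in NaV1.5_RD and 0.0506 to 9.76 in NaV1.5_HFD, and to 8.1 to 28.5 in Ctrl_RD and 1.29 to 9.57 in Ctrl_HFD. All 5 of these genes tested lay below 0 in both genotypes, and 0 of 5 passed (edgeR; in NaV1.5 atria 5 had an unadjusted p under 0.05, in controls 0). The summed atrial list ran from 45977 to 53733 CPM in NaV1.5_RD and from 40134 to 42923 CPM in NaV1.5_HFD. In controls this sum was also lower with the diet, at 46272 to 52042 CPM in Ctrl_RD and 44292 to 46032 CPM in Ctrl_HFD. Of the 6 atrial genes, Nppa, the atrial natriuretic peptide, passed as lower in NaV1.5 atria, by -0.44 (SE 0.089, edgeR adjusted p = 0.0279). In controls 0 of the 6 passed, though unscaled Nppa had 20510 to 23040 CPM in Ctrl_RD and 16680 to 17760 CPM in Ctrl_HFD. Erythroid genes had median differences of 0.72 in NaV1.5 atria, with 5 of 5 above 0, and -0.43 in controls, with 0 of 5 above 0; 0 of 5 passed in either and 0 had an unadjusted p under 0.05. The share of counts in genes of the mitochondrial genome was 18.8% to 20.6% in NaV1.5_RD and 20.4% to 25.3% in NaV1.5_HFD, and 18.7% to 21.9% in Ctrl_RD and 20.4% to 26.6% in Ctrl_HFD. NaV1.5_HFD replicate 4, the library lowest of its group for 8 of the 10 chaperone genes, also had the lowest share of its group.

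The diet's effect was set against itself between genotypes as an interaction, built from the same contrasts and so again a description. Of the 10 genes 9 lay above 0, against 48.1% of all genes, and nothing is read from that count. For 7 of these 9 genes the diet difference was positive in both genotypes and larger in NaV1.5 atria, for Dnaja1 by 0.04 (SE 0.20). Hspa1b and Hsp90ab1 had negative diet differences that were nearer 0 in NaV1.5 atria. The values were led by Hsph1 at 0.75 (SE 0.34) and Hsp90aa1 at 0.44 (SE 0.27). The other 8 lay between -0.11 (Hspa8, SE 0.16) and 0.23 (Ahsa2, SE 0.13). By edgeR 0 of 10 passed, as did 0.0% of all genes, and 1 of 10 had an unadjusted p under 0.05, against 2.26% of all genes. DESeq2 and limma-voom also called 0.

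**Figure D2:**
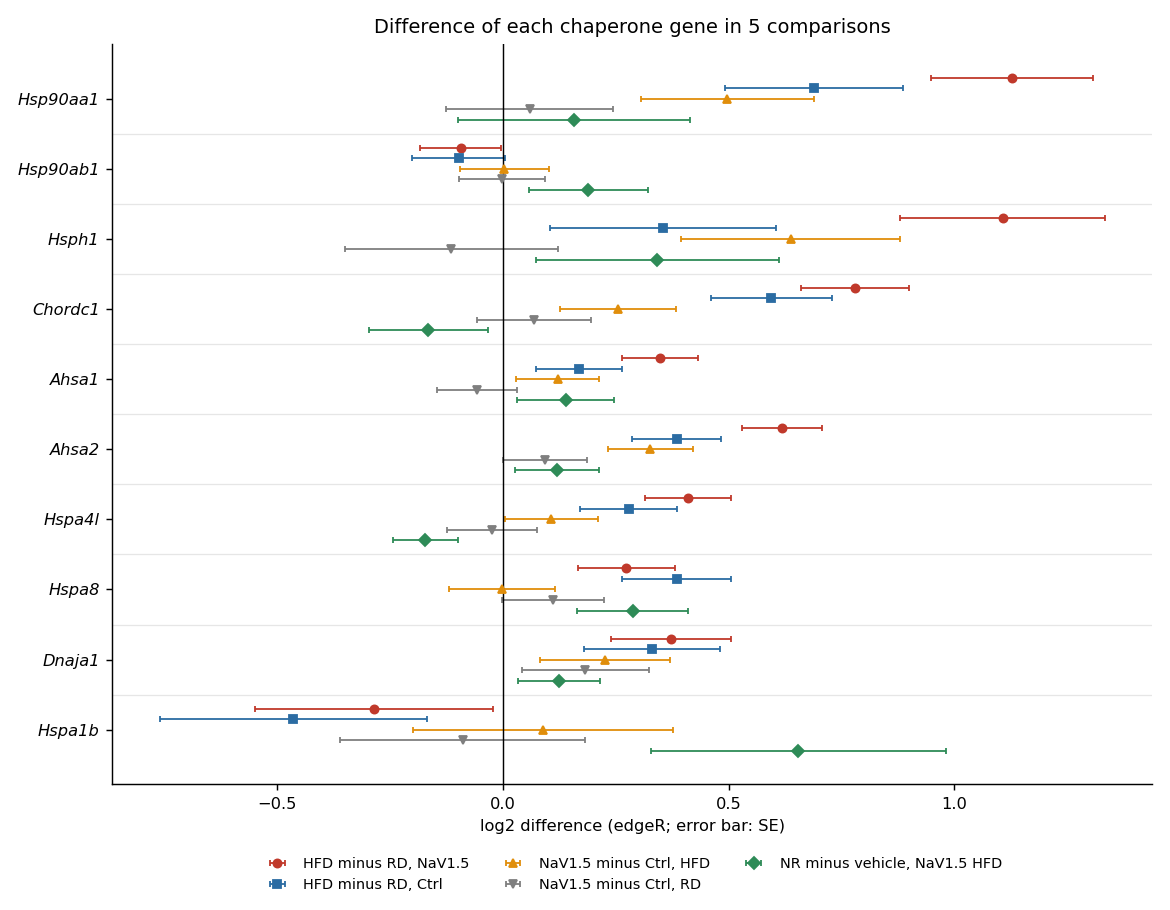
Log2 difference (horizontal axis, edgeR) of each chaperone gene in 5 comparisons, with 1 SE to each side; colours and shapes give the comparison, and the vertical line marks 0. For Hsp90aa1 and Hsph1 the diet in NaV1.5 atria lies at 1.13 and 1.11, genotype on the high-fat diet at 0.50 and 0.64, and genotype on the regular diet at 0.06 and -0.11.

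On the regular diet, NaV1.5 and control atria had much the same chaperone levels. The 10 differences ran from -0.11 (Hsph1, SE 0.24) to 0.18 (Dnaja1, SE 0.14), with a median of 0.03 against 0.01 over all genes. All 10 genes overlapped between the genotypes, where 1.72% of all genes were higher without overlap and 1.68% lower. By edgeR 0 of 10 passed, as did 0.0124% of all 16168 genes (0.00619% higher and 0.00619% lower), 0 had an unadjusted p under 0.05 (6.11% of all genes), and DESeq2 and limma-voom called 0. Hsp90aa1 differed by 0.06 (SE 0.19, adjusted p = 0.98) and Chordc1 by 0.07 (SE 0.13, adjusted p = 0.959). This contrast uses the NaV1.5_RD and Ctrl_RD libraries, which also entered the diet contrasts behind the list.

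On the high-fat diet, the genes with the largest diet differences were also higher in NaV1.5 than in control atria, but none passed the test. By edgeR 0 of 10 passed, as did 0.0866% of all genes (0.0371% higher and 0.0495% lower). DESeq2 and limma-voom also called 0. The libraries are again those of the diet contrasts, so this is no independent reading. Hsph1 differed by 0.64 (SE 0.24, adjusted p = 0.51), Hsp90aa1 by 0.50 (SE 0.19, adjusted p = 0.51) and Ahsa2 by 0.33 (SE 0.094, adjusted p = 0.277). These 3 had an unadjusted p under 0.05, as did 8.05% of all genes. Ahsa2 was the only 1 of the 10 without overlap, 21.04 CPM being its lowest NaV1.5_HFD library and 19.7 CPM its highest Ctrl_HFD library, and 1.73% of all genes were higher and 1.66% lower without overlap. The median over the 10 was 0.17 against 0.01 over all genes, with 9 of 10 above 0 against 51.2% of all genes. Hsp90ab1 (0.0028, SE 0.098) and Hspa8 (-0.0017, SE 0.12) showed no difference beyond their error. Erythroid genes moved in the same direction, at 583 to 831 CPM summed over 5 genes in Ctrl_HFD and 825 to 2937 in NaV1.5_HFD, with a median log2 difference of 1.59. Of these 5 genes 0 passed the threshold and 4 had an unadjusted p under 0.05, and their part was not tested.

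Nicotinamide riboside was compared with vehicle in libraries that were not used to pick genes for a rise with the diet. The list as a whole was still chosen with earlier results of these data known. All mice of this comparison were NaV1.5 mice on the high-fat diet. By edgeR 0 of 10 genes passed, as did 0.425% of all 16482 genes tested (0.0849% higher and 0.34% lower), and DESeq2 and limma-voom also called 0. An unadjusted p under 0.05 was found for 2 of 10, Hspa4l and Hspa8, against 11.1% of all genes. The median difference was 0.15 against -0.01 over all genes, with 8 of 10 above 0 against 48.8% of all genes.

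Hspa4l was the gene with the smallest p. In batch 3 it had 134, 126, 125, 114 and 119 CPM with vehicle and 114 and 106 CPM with NR, and in batch 2 the NR libraries had 89.7 to 96.2 CPM. Both NR libraries of batch 3 lay below every vehicle library, replicate 6 by a margin too small to show in 3 digits, and 8.25% of all genes were lower without overlap in the same way (5.93% higher, 0 of the 10 among them). The difference was -0.17 (SE 0.072, edgeR adjusted p = 0.387). Hspa8 had 1525, 1287, 1140, 1107 and 1146 CPM with vehicle and 1571 and 1459 CPM with NR in batch 3, and 930 to 1212 CPM with NR in batch 2. Vehicle replicate 1 lay among the NR libraries of its batch, and the difference was 0.29 (SE 0.12, adjusted p = 0.396).

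Hsp90aa1 varied widely with vehicle, at 356, 311, 218, 205 and 166 CPM, and the NR libraries of batch 3 at 271 and 290 CPM lay inside that range. Those of batch 2 had 309, 304, 339, 273 and 398 CPM. The difference was 0.16 (SE 0.26, edgeR adjusted p = 0.888). Hsph1 showed the same spread, with 104, 81.6, 63.5, 52.8 and 52.4 CPM with vehicle and 77.4 and 103 CPM with NR in batch 3, a difference of 0.34 (SE 0.27, adjusted p = 0.726). Chordc1 differed by -0.17 (SE 0.13, adjusted p = 0.723), Hsp90ab1 by 0.19 (SE 0.13, adjusted p = 0.669), and Ahsa1, Ahsa2 and Dnaja1 by 0.12 to 0.14.

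Hspa1b had the largest difference, 0.65 (SE 0.33, edgeR adjusted p = 0.488), at 0.616 to 1.55 CPM with vehicle and 1.5 and 2.08 CPM with NR in batch 3. Its copy Hspa1a differed by 0.97 (SE 0.38, adjusted p = 0.346), with NR replicate 7 at 1.65 CPM, NR replicate 6 at 0.723 CPM and the vehicle libraries at 0.383 to 0.759 CPM. Replicate 7 was thus the high library for both copies, and it was also the NR library with 317 CPM of Myl2 and one of the 2 that carry the contrast. Leaving it out cut the calls over all genes from 70 to 1, with 0 of the 10 genes called. Without a batch term 2 of the 10 passed, Hspa4l at -0.35 and Dnaja1 at 0.26, but so did 4392 of the 16482 genes tested. Nothing is read from those 2 calls. In the same fit 6 others of the 10 (Hsp90ab1, Hsph1, Chordc1, Ahsa1, Ahsa2 and Hspa8) changed sign. White adipocyte genes had a median difference of 2.64 over 5 genes tested, 0 of 5 past the threshold, and replicate 7 alone carried it. Adipoq, an adipocyte hormone gene, had 4.49 CPM in replicate 7, 0 in replicate 6 and 0.0474 to 2.22 CPM with vehicle. Replicate 6 lay within or below the vehicle range for all 5 genes, and the part of this tissue in the result was not tested.

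Levels in the 2 experiments are set side by side only as values, since the tables were scaled separately and the causes cannot be told apart. Batch 2 is the only batch in both experiments, and it joins Ctrl_HFD replicate 4 to NR libraries, which differ in genotype and treatment. On the same genotype and diet, Hsp90aa1 had 74.9 to 154 CPM in NaV1.5_HFD and 166 to 356 CPM with vehicle. Hspa4l had 48.5 to 62.7 and 114 to 134 CPM, and Dnaja1 34.4 to 57.7 and 66.8 to 82.3 CPM. Ahsa1 went the other way, with 116 to 141 CPM in NaV1.5_HFD and 85.3 to 118 CPM with vehicle. Within NR the batches also stood apart. Hsp90ab1 had 740 to 911 CPM in the 5 libraries of batch 2 and 1326 and 1394 CPM in those of batch 3. Ahsa1 had 61.9 to 76.5 CPM against 101 and 119 CPM. For both genes the batch difference under one treatment was larger than any difference between groups of the first experiment. Usp34, the overlapping neighbour of Ahsa2, had 10.2 to 17.8 CPM in the first experiment and 50.3 to 118 CPM in the second.

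Library by library, most pairs of these genes had an r above 0 inside groups, once the group means were taken out. Deviations of log2 CPM from the mean of the library's group and batch were correlated for all 45 pairs of genes. In the first experiment (16 libraries of batch 1) 35 of 45 pairs were above 0, with a median r of 0.32 and a range of -0.45 to 0.83. The closest pair was Hsp90aa1 and Chordc1 (0.83), followed by Chordc1 and Hspa8 (0.82) and Ahsa1 and Hspa4l (0.79). In the second experiment (12 libraries) 44 of 45 pairs were above 0, with a median of 0.58, led by Hsp90aa1 and Hsph1 (0.94) and Hsp90ab1 and Hspa8 (0.92). These r values describe libraries that share depth, scaling and composition, and carry no p. The share above 0 over pairs of all genes was not computed, so nothing particular to these genes is read from the counts.

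The constitutive Hsp90ab1 behaved unlike the others in one experiment and like them in the other. Its median r with the 9 remaining genes was -0.02 in the first experiment, with Dnaja1 at -0.45 and Hspa8 at -0.43, and 0.76 in the second, with Hspa8 at 0.92. Hspa1b was near 0 in the first, with a median of 0.01. Single libraries stood out across the list. Vehicle replicate 1 was highest of its group for 8 of 10 genes, Ctrl_RD replicate 4 for 8 and NaV1.5_RD replicate 4 for 6, while NaV1.5_HFD replicate 4 was lowest of its group for 8 and replicate 3 highest for 5. Hsp90aa1 and Hsph1 were among the genes for which NaV1.5_HFD replicate 4 was lowest.

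**Figure D3:**
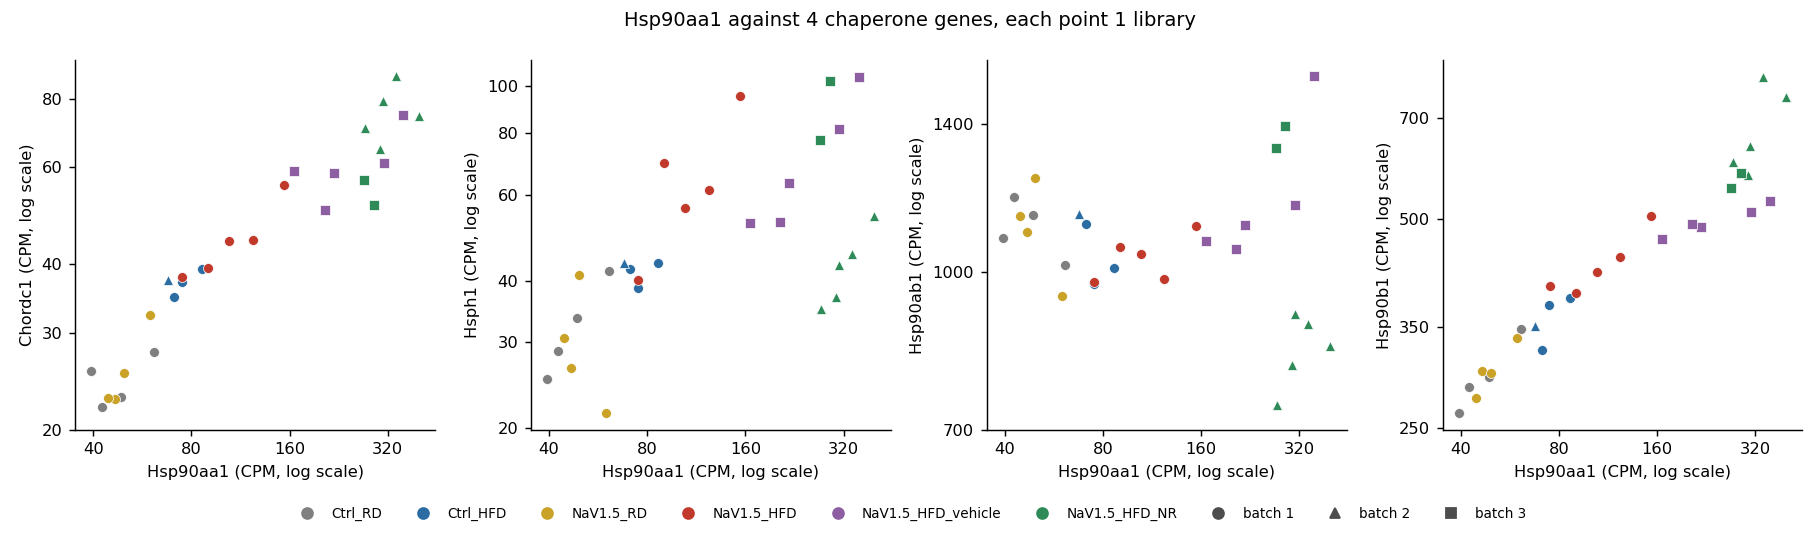
Hsp90aa1 (horizontal axis) against Chordc1, Hsph1, Hsp90ab1 and Hsp90b1 (vertical axes), all in CPM on log axes; each point is 1 library, colour gives the group and shape the labelled batch. Chordc1 and Hsp90b1 climb with Hsp90aa1 across the first experiment, whereas Hsp90ab1 falls slightly there and splits by batch among the NR libraries.

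Over all 16 batch 1 libraries, with the group differences kept in, the gene most like Hsp90aa1 among 16168 was Hsp90b1 (r = 0.974), the HSP90 of the endoplasmic reticulum known as GRP94, followed by Chordc1 (0.964). Other genes near the top that are not on the list were Cd36 (0.962), a fatty acid transporter, Cltc (0.953), the clathrin heavy chain, Dnajc3 (0.941), a J-domain protein of the endoplasmic reticulum, and Itgb1 (0.941), an integrin subunit. Further down came Tmem33 (0.931), Retreg1 (0.93), Crk (0.929) and Sec23a (0.928), the last a coat protein of vesicles leaving the endoplasmic reticulum. Most opposite were Acy3 (-0.967), Eml2 (-0.949), Bcl7b (-0.937), Tbc1d17 (-0.937) and Aspscr1 (-0.936). The points share the diet groups and the batch, and no p is given. Several genes of the list were chosen for a rise with the diet in these same libraries. A high r between list genes here, such as that of Chordc1, can thus follow from that choice, and nothing is read from it.

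Likeness held for few of these genes in the 7 batch 3 libraries. There Hsp90b1 had an r of 0.722 and Cd36 of 0.655, Retreg1 0.447, and the other 6 alike genes named here lay between -0.258 and 0.117. Of the 5 opposite genes, 3 turned positive, Acy3 at 0.386, Eml2 at 0.398 and Bcl7b at 0.479. On the list itself, Ahsa2 (0.92 in batch 1, 0.956 in batch 3), Hsph1 (0.871 and 0.925), Dnaja1 (0.763 and 0.804) and Hspa8 (0.852 and 0.786) kept a high r in both. Chordc1 had 0.964 in the first and 0.481 in the other, Hspa4l 0.91 and 0.286, and Hsp90ab1 -0.424 and 0.826. For list genes the batch 1 values are bound to the choice of the list by the diet, so they are a description only. The batch 3 libraries were not used to pick genes for a rise with the diet.

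The wider chaperone network was read from lists of 101 genes, 100 of them tested, that do not contain the 10. These lists, and those of cold-inducible, clock and immediate early genes below, were chosen with earlier results of these data known. Their counts past a threshold are thus a description. With the diet in NaV1.5 atria 5 of 100 passed as higher (edgeR), where 0.47% of all genes did, and 0 as lower, where 0.656% did. They were Hsp90b1 at 0.51 (SE 0.10, adjusted p = 0.0258), Dnajc3 at 0.49 (SE 0.11, adjusted p = 0.032), Ppid, the HSP90-bound cyclophilin 40, at 0.38 (SE 0.083, adjusted p = 0.0317), Dnaja4, a J-domain relative of Dnaja1, at 0.35 (SE 0.078, adjusted p = 0.0331), and Hspd1, the mitochondrial chaperonin HSP60, at 0.33 (SE 0.078, adjusted p = 0.0444). Hsp90b1 showed no overlap in this contrast, with 276 to 337 CPM in NaV1.5_RD and 391 to 506 CPM in NaV1.5_HFD. The median of the 100 was 0.04 against -0.01 over all genes, with 58 above 0 and 34 at an unadjusted p under 0.05 (18.9% of all genes).

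By role, 1 of 2 other HSP90 genes passed as higher, 1 of 27 further HSP90 cochaperones (13 above 0), 2 of 27 J-domain genes (15 above 0) and 1 of 10 chaperonins. All 10 chaperonins, the TRiC subunits and the mitochondrial pair Hspd1 and Hspe1, lay above 0, with a median of 0.20. None of 11 HSP70 genes, 11 nucleotide exchange factors and BAG proteins, 7 small heat shock proteins and 5 heat shock factors passed, with medians of 0.06, 0.05, 0.02 and -0.0019. Hsf1, heat shock factor 1, stood at 44.1 ± 7.42 CPM in NaV1.5_RD and 40.9 ± 5.2 CPM in NaV1.5_HFD, a difference of -0.11 (SE 0.12, edgeR adjusted p = 0.646). Leaving out 1 library changed the count of 5: it was 0 without NaV1.5_RD replicate 2 or 3 or NaV1.5_HFD replicate 2 or 3, 1 without NaV1.5_RD replicate 1 or NaV1.5_HFD replicate 5, 13 without NaV1.5_HFD replicate 4 and 23 without NaV1.5_RD replicate 4. It was 0 without the libraries high in Myl2, 17 by DESeq2 and 30 by limma-voom. Calls over all genes shifted as well, from 182 in the main fit. Without NaV1.5_RD replicates 2 or 3 they were 19 or 4, and without NaV1.5_HFD replicates 2 or 3, 13 or 11. Without NaV1.5_RD replicate 1 they were 66, and without NaV1.5_HFD replicate 5, 89. They were 506 without NaV1.5_HFD replicate 4 and 1138 without NaV1.5_RD replicate 4. Without the libraries high in Myl2 they were 0, by DESeq2 849 and by limma-voom 1950.

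In the other comparisons edgeR called 0 of the 100. In controls with the diet 15 had an unadjusted p under 0.05 (8.49% of all genes) and 63 lay above 0 (49.1% of all genes). There limma-voom called 1 of the 100 and 75 of all genes, and DESeq2 0 and 19. All 10 chaperonins again lay above 0 there, with a median of 0.19. For genotype, 2 had an unadjusted p under 0.05 on the regular diet (6.11% of all genes) and 5 on the high-fat diet (8.05%), with medians of 0.0032 and 0.002, and no other tool called any. With NR 11 had one (11.1% of all genes), the median was 0.03, and DESeq2 called 2 (254 of all genes) and limma-voom 0 (56 of all genes).

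**Figure D4:**
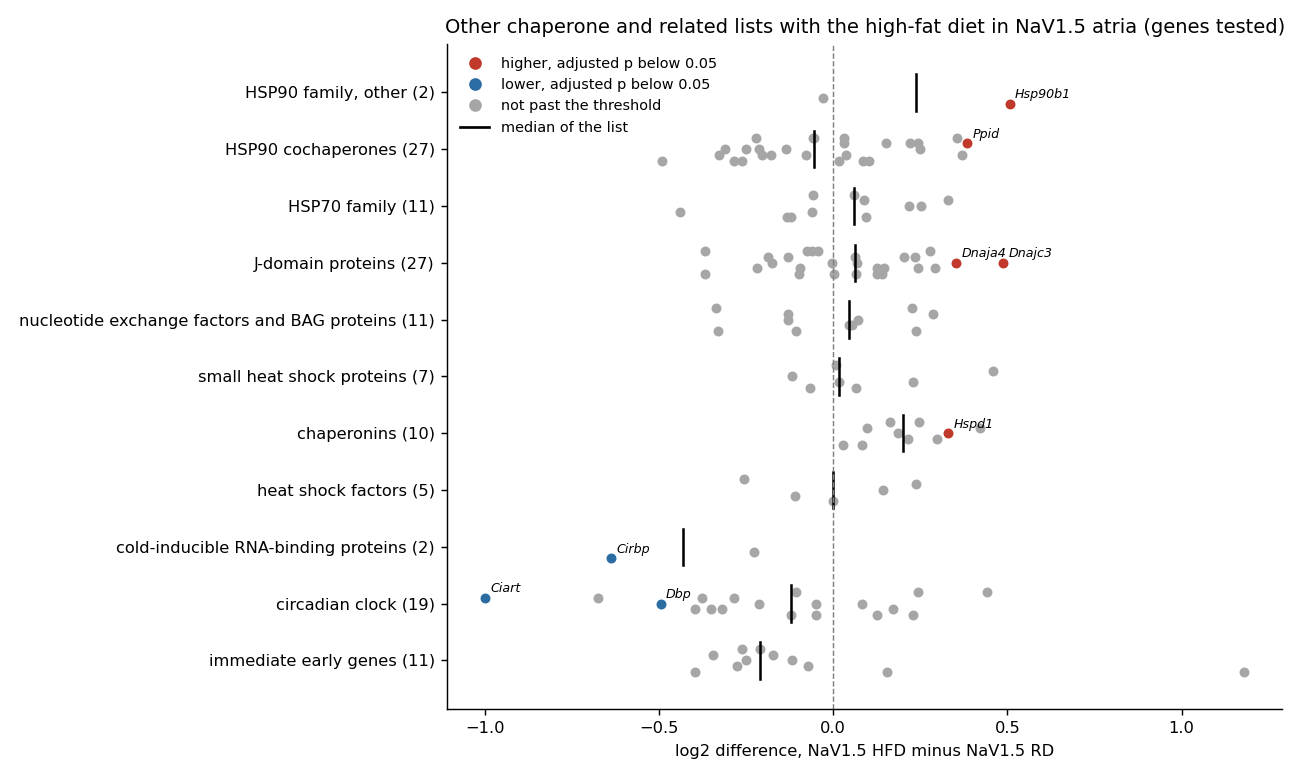
Log2 difference between the diets in NaV1.5 atria (horizontal axis) for each tested gene of the other chaperone lists and of 3 related lists; each point is 1 gene, the count of tested genes is in brackets, the black bar is the list's median, and colour marks genes past an adjusted p of 0.05. Hsp90b1, Dnajc3, Ppid, Dnaja4 and Hspd1 lie at 0.33 to 0.51 on the higher side, and Cirbp, Ciart and Dbp at -0.64, -0.999 and -0.50 on the lower side.

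Cold-inducible RNA-binding proteins, whose transcripts are known to rise in the cold, were read beside them. Cirbp had 103, 78.4, 88.3 and 94.8 CPM in NaV1.5_RD and 72.3, 55.7, 48.2, 63.5 and 53.0 CPM in NaV1.5_HFD. No library overlapped, and it passed as lower, by -0.64 (SE 0.11, edgeR adjusted p = 0.0178). In controls Cirbp had 90.3 to 101 CPM on regular diet and 57.8 to 78.5 CPM on the high-fat diet, a difference of -0.45 (SE 0.13, adjusted p = 0.503). Rbm3, the other gene of this kind, did not pass in either, at -0.23 (SE 0.15, adjusted p = 0.447) and -0.12 (SE 0.17, adjusted p = 0.864). Over the 16 batch 1 libraries r with Hsp90aa1 was -0.847 for Cirbp and -0.139 for Rbm3. Over the 7 of batch 3 it was -0.208 and -0.498. With NR, Cirbp differed by -0.46 (SE 0.17, adjusted p = 0.324) and Rbm3 by -0.08 (SE 0.11, adjusted p = 0.872).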

How the data were processed

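The deposited values are unnormalized counts, in which featureCounts 2.0.1 assigned read pairs to gene names on GRCm38 without using strand and without multi-mapped or multi-overlapping pairs, per the file headers. FastQC 0.11.7 and STAR 2.7.6a are named in the submitters' processing notes. The labels give a stranded poly-A preparation. The sources used here do not give trimming or read length.

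The 4 diet groups formed one fit and vehicle and NR another, with group and batch as terms, in edgeR 4.0.16 (R 4.3.3): filterByExpr, TMM, robust quasi-likelihood F-test, 2-sided, Benjamini-Hochberg adjustment over all genes tested, threshold 0.05. The SE is the absolute log2 difference divided by the square root of F. Log2 CPM used a prior count of 2. The calculation was tested on simulated data. Alternatives included DESeq2 1.42.0 and limma-voom 3.58.1; another, without libraries above 30 CPM of Myl2, was chosen after seeing the data. Python 3.11.15 and matplotlib 3.10.9 drew the figures.

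Members and lists were chosen with earlier results of these data known. Named were all 10 genes, up to 3 per list and direction past the threshold in each comparison, Hspa1a, Hsf1, Cirbp and Rbm3, and the 10 genes most like (1 of them is not reported here) and 5 most unlike Hsp90aa1; Usp34, Gm12346 and marker genes were named for their overlap or role as markers. No libraries of a group were identical (chi-square per gene of 6.4 or more). No genome was used; stretches shared between genes come from the GENCODE transcripts of the same build.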

Additional observations from a re-analysis of the deposited data

Results flagged for a closer look

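Within groups, 6 of 60 sets of libraries held 1 library far from the rest by Dixon's ratio at 95%, a rule that chance alone meets in about 1 of 20 sets. Hsp90ab1 was high in vehicle replicate 1, at 1559 CPM against 1165 in the next library. NaV1.5_HFD replicate 4 was low for Ahsa1, at 116 CPM against 135, and for Hspa4l, at 48.5 CPM against 60.1. Hspa8 was high in Ctrl_RD replicate 4, at 648 CPM against 564. Hspa1b was low in Ctrl_RD replicate 1, at 1.46 CPM against 2.12, and in NaV1.5_RD replicate 1, at 1.3 CPM against 1.99. Vehicle replicate 1, NaV1.5_HFD replicate 4 and Ctrl_RD replicate 4 are also the libraries that were highest or lowest of their group for 8 of the 10 chaperone genes each.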

How the results depend on the processing

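The 5 called diet differences in NaV1.5 atria kept their sign in all 18 alternatives run on each. Several of the 10 genes were listed for a rise with the diet in these same libraries, so nothing is read from that. Other differences changed sign, among them 6 NR differences without a batch term and Hsp90aa1 for genotype on the regular diet. The last kept its sign in 13 of 17. Genes called for genotype on the regular diet were 2, and 10 without a low-count filter, 27 by DESeq2, 15 by limma-voom, 4 with GC and length offsets, 1 with the replicate block, 1 without the libraries high in Myl2, and 1 to 5 with 1 library left out. For genotype on the high-fat diet they were 14, and in the same order 43, 90, 124, 11, 8, 5 and 2 to 14, with 31 without a batch term. For the diet in NaV1.5 atria they were 182, and 849 by DESeq2, 1950 by limma-voom, 52 with offsets, 27 with the replicate block, 0 without the libraries high in Myl2 and 4 to 1138 with 1 left out. For the diet in controls they were 0, and 5 without a filter, 1 without a batch term, 19 by DESeq2, 75 by limma-voom and 0 with any 1 left out. For the interaction they were 0 under every alternative run. For NR they were 70, and 140 without a filter, 4392 without a batch term, 254 by DESeq2, 14 with offsets, 18 in batch 3 alone and 1 to 66 with 1 left out. Of the 10 genes, 5 were called for the diet in NaV1.5 atria, and 8 by limma-voom, 3 with offsets, 2 with the replicate block, 0 without the libraries high in Myl2 and 1 to 8 with 1 left out. In controls 0 were called, and 1 without a filter (Chordc1) and 3 by limma-voom (Hsp90aa1, Chordc1, Ahsa2); with NR 0, and 2 without a batch term. In the genotype comparisons and the interaction 0 were called under every alternative run. The cause of these shifts was not tested. Deviations of same-numbered libraries had r of -0.17 to 0.17 over 18 pairs, and those of differently numbered libraries -0.22 to 0.31 over 65 pairs. No pairing by replicate number was seen, though this check cannot exclude one. For NR no paired analysis was possible because same-numbered vehicle and NR libraries lie in different batches. With 13189995 to 33061018 counts per library, Hspa1b and Hspa1a rest on few counts, and the NR contrast on 2 NR libraries.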

Other observations

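Clock genes were read as a list of 19 beside the chaperones, also chosen with earlier results of these data known. With the diet in NaV1.5 atria 2 passed as lower and 0 as higher (edgeR), where 0.656% of all genes passed as lower and 0.47% as higher. Ciart, a repressor of the clock, had 24.5 to 36.9 CPM in NaV1.5_RD and 12.7 to 17.4 CPM in NaV1.5_HFD, a difference of -0.999 (SE 0.14, adjusted p = 0.00833). Dbp, a clock output factor, had 130 to 144 CPM and 76.1 to 129 CPM, a difference of -0.50 (SE 0.12, adjusted p = 0.0409). The groups did not overlap for either gene, as for 3.26% of all genes on the lower side. The sources used here do not give the time of day of tissue collection. The list's median was -0.12, with 6 of 19 above 0. In controls 0 of 19 passed and 4 had an unadjusted p under 0.05 (8.49% of all genes).

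Immediate early genes, which respond within minutes to handling and stimulation, did not pass in any comparison (0 of 11 by edgeR). With the diet in NaV1.5 atria 0 had an unadjusted p under 0.05 (18.9% of all genes) and the median was -0.21, against -0.01 over all genes. With NR 2 had one, 10 of 11 lay above 0, and the median was 0.37.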
